A study of Mus musculus with 12 samples.

Results

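The effect of PTSO alone on CMT-93 cells was described from 6 of the 12 libraries of the series, 3 labelled PTSO and 3 labelled Control, across all genes with enough counts to test. PTSO, the usual short name of propyl propane thiosulfonate, is an organosulfur compound of garlic, and CMT-93 is a carcinoma line of mouse rectal epithelium. PTSO cells received 20 µM PTSO and Control cells the vehicle, which the labels do not name, and cells were harvested after 6 hours. The other 6 libraries received the same PTSO or vehicle 30 minutes ahead of antigens of the whipworm Trichuris muris at 100 µg/mL, and form the groups PTSO + T. muris and T. muris. They entered the model for its estimate of spread and served as a separate set of libraries for the PTSO effect. All 4 groups share the cell line and have 3 libraries each. Whether replicate libraries were separate cultures is not in the labels, so p-values measure only the spread between these samples, which may be technical. In bulk RNA, fewer cells of a type and less RNA per cell cannot be told apart.

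Thiosulfonates react with the thiol groups of cysteines, and compounds of that reactivity are known to engage the NRF2 pathway, which controls antioxidant genes such as Txnrd1 and Hmox1, and the heat shock pathway, in which the factor HSF1 induces chaperones such as Hspa1a when proteins misfold. Selenoproteins are a small family, many of them redox enzymes, that carry selenocysteine. This amino acid is read from a UGA codon that would otherwise stop translation, and a UGA ahead of an exon junction can expose the messenger RNA to nonsense-mediated decay. The mRNAs of Gpx1, Selenow and Selenoh are known in the mouse for their dependence on selenium supply, which was not measured here. The aryl hydrocarbon receptor binds plant and microbial ligands in gut epithelium and induces Cyp1b1 and its own repressor enzyme Tiparp.

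Total counts were 28.8, 30.3 and 23 M in the PTSO libraries and 25.3, 24.6 and 25.9 M in the Control libraries, within 16.7 to 34.5 M over the series. Control libraries 2 and 3 stood apart. On the leading principal component (19.6% of the variance) the PTSO libraries lay at 0.93, 13.1 and 7.08. Control libraries 1, 2 and 3 lay at -3.58, -35.4 and -41.5. The T. muris libraries, which received no PTSO, lay beside the PTSO libraries, at 4.62, 2.17 and 3.97. The PTSO + T. muris libraries lay at 22.96, 15.7 and 10.1. How far the PTSO changes below follow this component was not tested. Differences in counts between libraries of one group, as chi-square per degree of freedom, were 6.79 to 8.10 among the PTSO libraries. Between Control library 1 and the others they were 16.1 and 24.9, and between Control libraries 2 and 3 they were 7.71. A weighting of libraries by their fit to their own group gave the lowest weight, 0.234, to Control library 1. Control libraries 2 and 3 had weights of 2.84 and 0.565. Within the Control group these measures set library 1 apart, while the principal component set libraries 2 and 3 apart from the other groups. The counts alone therefore do not say which Control library is the odd one. With the T. muris libraries, Control library 1 correlated at 0.988 to 0.989. Control library 2 correlated with them at 0.983 to 0.985, and Control library 3 at 0.982 to 0.984. Of 12 intestinal epithelial markers, 9 were at 1 CPM or more (CPM, counts scaled to library size by TMM), with a summed level of 8194 to 8593 CPM in PTSO libraries and 8493 to 8755 CPM in Control libraries. Cdx1 was listed at 0, and Krt20 and Cdx2 were under 1 CPM. The 12 leukocyte markers summed to 3.28 to 6.12 CPM in PTSO libraries and 4.80 to 6.33 CPM in Control libraries, with Cd3e, Ms4a1, Nkg7 and Tyrobp at 0. The 12 fibroblast and endothelial markers summed to 3.97 to 4.90 CPM in PTSO libraries and 3.73 to 4.95 CPM in Control libraries, with Pdgfrb, Col3a1, Dcn and Lum at 0.

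PTSO changed many genes by a small amount and a few genes by a large one. Of 15267 genes tested, 802 (5.25%) were called at an adjusted p under 0.05, 360 higher (2.36%) and 442 lower (2.90%) with PTSO. Called changes had a median size of 0.34 (log2); 629 of the called genes changed by less than 0.5 and 37 by at least 1, of which 15 were higher and 22 lower. The calls of 117 genes (0.766% of those tested), 55 higher and 62 lower, held in all 12 fits that each left out 1 library, and these are called held genes here. Without Control libraries 2 and 3 together 73 genes (0.478%) were called, 30 higher and 43 lower, and 53 of the 802 were among them. With the 6 libraries alone in the fit 51 genes (0.334%) were called, all of them among the 802. Without Control library 1 the count was 3663 (24.0%). Leaving out Control library 2 gave 162 calls, Control library 3 gave 221, PTSO library 2 gave 168 and PTSO library 3 gave 214, and each other library of the 12 gave 540 to 723.

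**Figure D1:**
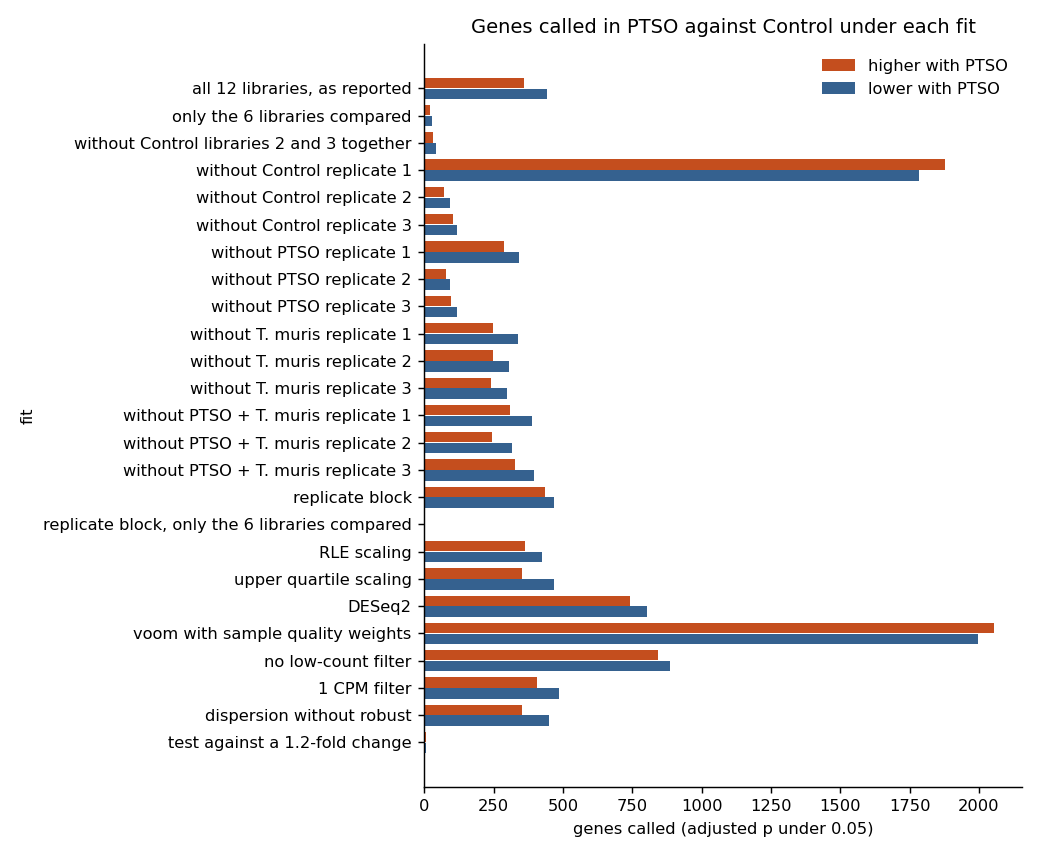
Number of genes called higher (upper bar of each pair) and lower (lower bar) with PTSO than in Control, on the x axis, in each fit on the y axis. With all 12 libraries 360 genes were higher and 442 lower; without Control library 1 these were 1879 and 1784, and without Control libraries 2 and 3 together 30 and 43.

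Control library 1 lay nearer to the PTSO libraries than the other Control libraries did, but on the same side of them. For all 802 called genes the mean PTSO level differed from Control library 1 in the direction of the call, and the size of that difference separated the Control libraries. Its median was 0.19 on the log2 CPM scale against Control library 1, 0.38 against Control library 2 and 0.44 against Control library 3. In the 117 held genes the medians were 0.31, 0.45 and 0.54. Control library 1 was the nearest of the 3 Control libraries to the PTSO mean in 86.2% of called genes, while over all genes tested this share was 52.4%. These directions are in part set by the calls, which use all 3 Control libraries, and are given as a description. The 3 PTSO and the 3 Control libraries did not overlap in 746 of the called genes and in all 117 held genes; over all genes tested, 10.4% were without overlap and higher and 10.2% without overlap and lower.

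**Figure D2:**
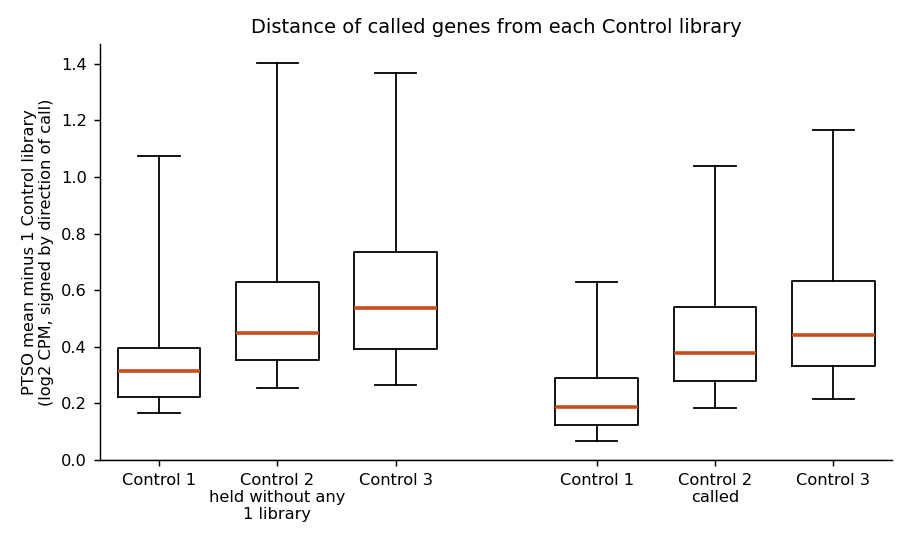
Difference between the PTSO mean and each Control library, on the y axis in log2 CPM signed by the direction of the call, for the 117 held genes (left) and the 802 called genes (right). The line is the median, the box the middle of the distribution between the quartiles, and the whiskers the 5th and 95th percentiles; the medians against Control library 1 are 0.31 and 0.19, the lowest in each set.

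Among selenoprotein mRNAs, Selenow, Selenoh and Gpx1 rose, with the smallest adjusted p of all rises without Control libraries 2 and 3. Their selenocysteine codons, and that of Txnrd1, are shown with the coding bases around them, because the position of this codon was compared below. The TGA is in capitals; sequences are the coding strand of GENCODE M21, build GRCm38, and the position is that of the codon.
Selenow, chr7:15920464-15920466, minus strand: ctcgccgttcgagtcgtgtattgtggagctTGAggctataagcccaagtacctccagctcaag
Selenoh, chr2:84670381-84670383, minus strand: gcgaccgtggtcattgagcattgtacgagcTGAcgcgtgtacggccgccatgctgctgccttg
Gpx1, chr9:108339451-108339453, plus strand: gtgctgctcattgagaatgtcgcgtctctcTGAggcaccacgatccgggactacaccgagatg
Txnrd1, chr10:82896037-82896039, plus strand: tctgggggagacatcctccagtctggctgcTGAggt
In Selenow, Selenoh and Gpx1 the codon lies 243, 204 and 105 bases of the spliced transcript ahead of the last exon junction, while in Txnrd1 it is the next to last codon and lies in the last exon.

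Selenow (ENSMUSG00000041571), which encodes a small cytosolic selenoprotein, had 88.5, 95.6 and 94.7 CPM in the PTSO libraries, against 36.3, 35.1 and 44.9 CPM in the Control libraries. All PTSO values were above all Control values, and the highest Control library was library 3. The log2 fold change was 1.26 ± 0.0826 (SE, n = 3 per group; adjusted p = 2.84e-08) and 1.35 against Control library 1 alone (adjusted p = 3.19e-11). Selenoh (ENSMUSG00000076437), a nuclear selenoprotein, had 57.8, 64.7 and 64.1 CPM with PTSO and 29.4, 24.3 and 24.03 CPM in Control. Here Control library 1 was the highest of its group and still far below each PTSO library, with a log2 fold change of 1.26 ± 0.0855 (adjusted p = 2.53e-08) and of 1.08 without Control libraries 2 and 3 (adjusted p = 1.14e-07). Gpx1 (ENSMUSG00000063856), the cytosolic glutathione peroxidase, had 316, 301 and 331 CPM with PTSO and 188, 178 and 193 CPM in Control. The Control libraries lay close together, and Gpx1 rose by 0.76 ± 0.0475 (adjusted p = 1.15e-08), against 0.74 without Control libraries 2 and 3 (adjusted p = 1.08e-09). With only the 6 libraries in the fit each of these 3 genes had an adjusted p of 0.000103.

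Of the 21 selenoprotein genes tested, 5 were called higher and 1 lower, where 2.36% and 2.90% of all genes were, and 15 had a value above 0. The median was 0.06 both with and without Control libraries 2 and 3, so most of the family stayed near the median of all genes, 0.00. Txnrd1, the cytosolic thioredoxin reductase, had 238, 258 and 251 CPM with PTSO and 220.1, 183 and 171 CPM in Control. Control library 1 lay nearest to the PTSO libraries, and the change of 0.38 (adjusted p = 0.00401) became 0.18 without Control libraries 2 and 3 (adjusted p = 0.218). Selenof, a selenoprotein of the endoplasmic reticulum, rose by 0.18 (adjusted p = 0.0201) and the secreted peroxidase Gpx3 fell by 0.83 (adjusted p = 0.0431); neither was called without Control libraries 2 and 3, with adjusted p = 0.514 and 0.822. Sephs2, the selenophosphate synthetase that is itself a selenoprotein, had 54.4, 43.2 and 44.6 CPM with PTSO and 61.97, 54.4 and 55.6 CPM in Control. It was lower in each PTSO library than in each Control library, but was not called (log2 fold change -0.27, adjusted p = 0.0610). The selenocysteine machinery had 0 of 10 members called, with a median of -0.01.

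The position of the codon was set beside these values. Of the 21 tested genes, 13 have it ahead of the last exon and 8 in the last exon or a single exon. Among the 13 the median log2 fold change was 0.14 and 4 were called higher (Selenow, Selenoh, Gpx1 and Selenof), and among the 8 it was 0.01 with Txnrd1 called higher. The position did not sort the genes by itself: Gpx4 (342 bases ahead of the last junction) had a log2 fold change of 0.01, Selenot (470 bases) of 0.09, and Gpx3 (240 bases) fell. These are counts and medians with no test of the difference.

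The antioxidant lists did not follow the 3 selenoproteins. Of 35 NRF2 targets 2 were called higher, Txnrd1 and the heme oxygenase Hmox1, where 2.36% of all genes were. The list median was 0.02 with all libraries and -0.11 without Control libraries 2 and 3. Hmox1 had 50.6, 51.1 and 48.4 CPM in PTSO libraries and 46.3, 37.5 and 33.3 CPM in Control libraries. Its Control libraries spread over a range as wide as the difference, and the change of 0.36 (adjusted p = 0.0235) was 0.11 without Control libraries 2 and 3 (adjusted p = 0.846). Without those libraries 9 of the 35 NRF2 targets were above 0. Members below 0 then included Osgin1 (-0.48), Aldh3a1 (-0.67) and Gsta1 (-1.43). None of these 3 was called with all libraries. Of the thioredoxin and peroxiredoxin list 0 of 19 were called, with Sesn2 at the smallest p (log2 fold change 0.36, adjusted p = 0.0768). Of 19 genes of sulfur and hydrogen sulfide metabolism 0 were called, with Mtrr, methionine synthase reductase, at 0.21 (adjusted p = 0.0989).

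Hspa1a (ENSMUSG00000091971), an inducible chaperone of the HSP70 family, was nearly silent in Control. It had 145, 284 and 50 counts in the PTSO libraries, against 1, 0 and 6 counts in the Control libraries, and the groups did not overlap. The ratio of pooled CPM was 63.3, with an exact 95% interval of 30.5 to 158 that covers counting error only. The call held in all 12 fits that left out 1 library (log2 fold change 5.84 ± 0.790, adjusted p = 0.00394). Against Control library 1 alone, which had 1 count, the log2 fold change was 6.97 (adjusted p = 0.217), and with 6 libraries it was 5.84 (adjusted p = 0.0513). Its near-identical paralog Hspa1b shares reads with it. The sum of both had 73.7, 93.4 and 45.7 CPM with PTSO and 29.0, 37.2 and 41.6 CPM in Control, so that PTSO library 3 was close to Control library 3, and Hspa1b alone had adjusted p = 0.0634. The 250 bases ahead of the Hspa1a start, from RefSeq with build GRCm38.p6, are shown with a match to GAANNTTC or TTCNNGAA, a short form of the heat shock element searched on both strands, in capitals.
Hspa1a, chr17:34972157-34972406, minus strand: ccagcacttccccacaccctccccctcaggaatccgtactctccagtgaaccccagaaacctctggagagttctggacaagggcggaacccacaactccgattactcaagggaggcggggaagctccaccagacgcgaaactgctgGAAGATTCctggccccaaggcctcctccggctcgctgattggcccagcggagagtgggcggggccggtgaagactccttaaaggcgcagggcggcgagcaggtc
The match lies 104 to 97 bases ahead of the start. The same letters stood in 12.9% of 27025 promoters of that table and in 7 of 20 promoters of the heat shock list.

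In the rest of the heat shock list no gene was called higher with PTSO alone. Of 25 tested genes 1 was called higher and 2 lower, where 2.36% and 2.90% of all genes were, and the median was 0.04. In PTSO + T. muris against T. muris 3 were called higher, Hspa1a (5.77, adjusted p = 0.00861), Hspa1b (1.40, adjusted p = 0.0466) and Hspb1 (0.23, adjusted p = 0.0298), the last a small heat shock protein that was at 0.02 (adjusted p = 0.854) with PTSO alone. Hspa8 (-0.19, adjusted p = 0.0238) was the 1 member called lower there. Over all genes in that comparison 0.229% were called higher and 0.386% lower. Hspa8, the constitutive HSP70, had 2357, 2186 and 2231 CPM with PTSO and 2597, 2586 and 2587 CPM in Control. Each PTSO library was below each Control library, and the fall of 0.20 (adjusted p = 0.00652) was -0.20 without Control libraries 2 and 3 (adjusted p = 0.0214). The small heat shock protein gene Cryab fell by 0.62 (adjusted p = 0.0106), and was at -0.35 without Control libraries 2 and 3 (adjusted p = 0.640).

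P2rx7 (ENSMUSG00000029468), a cation channel opened by extracellular ATP, had 103, 181 and 78 counts in the PTSO libraries and 9, 26 and 26 counts in the Control libraries, which is 3.59, 5.94 and 3.41 CPM and 0.357, 1.05 and 0.998 CPM. Control library 1 was the lowest of the 6, so leaving out Control libraries 2 and 3 made the difference larger. The log2 fold change was 2.42 ± 0.357 (adjusted p = 0.00142) with all libraries and 3.58 (adjusted p = 0.000303) against Control library 1. It was the only called gene of 13 tested P2X and P2Y receptors, whose median was 0.05.

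Cyp1b1 and Tiparp, targets of the aryl hydrocarbon receptor, rose. Cyp1b1 (ENSMUSG00000024087), a cytochrome P450 that oxidises xenobiotics and estrogens, had 492, 502 and 507 CPM with PTSO and 390.3, 334 and 311 CPM in Control. The PTSO libraries were close together and above every Control library, and Control library 1 was again the nearest. Its rise of 0.54 ± 0.0650 (adjusted p = 0.000368) was held, and was 0.36 (adjusted p = 0.000542) without Control libraries 2 and 3. Tiparp, a mono-ADP-ribosyltransferase that represses the receptor, had 158, 183 and 153 CPM with PTSO and 119.8, 91.1 and 79.2 CPM in Control. It rose by 0.77 (adjusted p = 0.0208), a call that was lost without Control libraries 2 and 3 (0.46, adjusted p = 0.387). Of 9 list members tested 2 were called higher, where 2.36% of all genes were. The list median was 0.13 in both fits, and Aldh3a1, of this list too, was lower without Control libraries 2 and 3. The bases ahead of the start of the genes that rose are shown with the core of the xenobiotic response element, GCGTG or its complement CACGC, in capitals (RefSeq, GRCm38.p6).
Cyp1b1, chr17:79715062-79715311, minus strand: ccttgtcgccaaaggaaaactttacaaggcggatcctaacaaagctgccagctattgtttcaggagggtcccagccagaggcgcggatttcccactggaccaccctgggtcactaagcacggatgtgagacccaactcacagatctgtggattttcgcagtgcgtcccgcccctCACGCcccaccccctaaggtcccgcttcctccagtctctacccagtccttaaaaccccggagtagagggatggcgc
Tiparp, chr3:65528197-65528446, plus strand: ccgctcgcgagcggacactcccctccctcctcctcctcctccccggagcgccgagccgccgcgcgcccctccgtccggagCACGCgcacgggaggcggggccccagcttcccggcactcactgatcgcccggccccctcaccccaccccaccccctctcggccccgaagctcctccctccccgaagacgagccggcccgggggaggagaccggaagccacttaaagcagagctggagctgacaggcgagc
The core stood 76 to 72 and 170 to 166 bases ahead of the start. It was found in 28.2% of 27025 promoters and in 5 of 6 promoters of the list.

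Among the other held genes with the largest rises above an average log2 CPM of 1, Odaph, a phosphoprotein gene known from tooth enamel, had 12.3, 11.3 and 10.3 CPM with PTSO and 7.50, 4.99 and 5.10 CPM in Control. Sema4f, a membrane semaphorin of axon guidance, had 185, 202 and 189.8 CPM with PTSO and 146, 110.2 and 107 CPM in Control. Ccbe1, a matrix protein gene of lymphatic growth, had 48.97, 47.5 and 43.8 CPM with PTSO and 37.1, 30.8 and 25.9 CPM in Control. In each of these genes Control library 1 was the highest of its group and below every PTSO library. Odaph rose by 0.94 (adjusted p = 0.00210), Sema4f by 0.67 (adjusted p = 0.00394) and Ccbe1 by 0.58 (adjusted p = 0.00328). Without Control libraries 2 and 3 Sema4f remained called (0.39, adjusted p = 0.00126), while Odaph (0.59, adjusted p = 0.234) and Ccbe1 (0.33, adjusted p = 0.173) did not.

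Leaving aside genes whose log2 CPM averaged under 1, the largest held falls were in genes of low or moderate level. Depp1, a gene induced by FOXO factors, had 37, 36 and 16 counts with PTSO and 64, 96 and 111 counts in Control, a fall of 1.73 (adjusted p = 0.00439). Ccdc33 had 42, 43 and 32 counts with PTSO and 76, 112 and 144 counts in Control, a fall of 1.61 (adjusted p = 0.00364). In both genes Control library 1 had the fewest counts of its group, and adjusted p without Control libraries 2 and 3 was 0.371 and 0.431. Fgfr3, a fibroblast growth factor receptor, had 3.83, 3.81 and 3.85 CPM with PTSO and 7.89, 6.61 and 7.56 CPM in Control. Here Control library 1 was the highest, and the fall was 0.94 (adjusted p = 0.00401) with all libraries and -1.05 (adjusted p = 0.0359) without Control libraries 2 and 3. Galnt18, of the family that starts mucin-type O-glycans, had 19.9, 14.9 and 19.4 CPM with PTSO and 27.7, 33.4 and 40.2 CPM in Control. It fell by 0.91 (adjusted p = 0.00102), and stood at -0.62 (adjusted p = 0.0217) without Control libraries 2 and 3.

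The receptor kinase Grk4 (-0.95), the actin adaptor Afap1l2 (-0.87), aspartoacylase Aspa (-0.84), the lysoplasmalogenase Tmem86a (-0.76), the ISG15-activating enzyme Uba7 (-0.74) and the water channel Aqp1 (-0.68) were the other falls among the 10 largest above that level. Each of these 6 genes was lowest in Control library 1 within its group, and none was called without Control libraries 2 and 3, at adjusted p from 0.0719 for Aspa to 0.501 for Uba7. Their log2 fold changes were then -0.71 for Grk4, -0.74 for Afap1l2, -0.53 for Aspa, -0.43 for Tmem86a, -0.43 for Uba7 and -0.48 for Aqp1. With the 6 libraries alone Aspa (0.0398), Grk4 (0.0459), Afap1l2 (0.0476) and Tmem86a (0.0476) stayed under an adjusted p of 0.05.

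**Figure D3:**
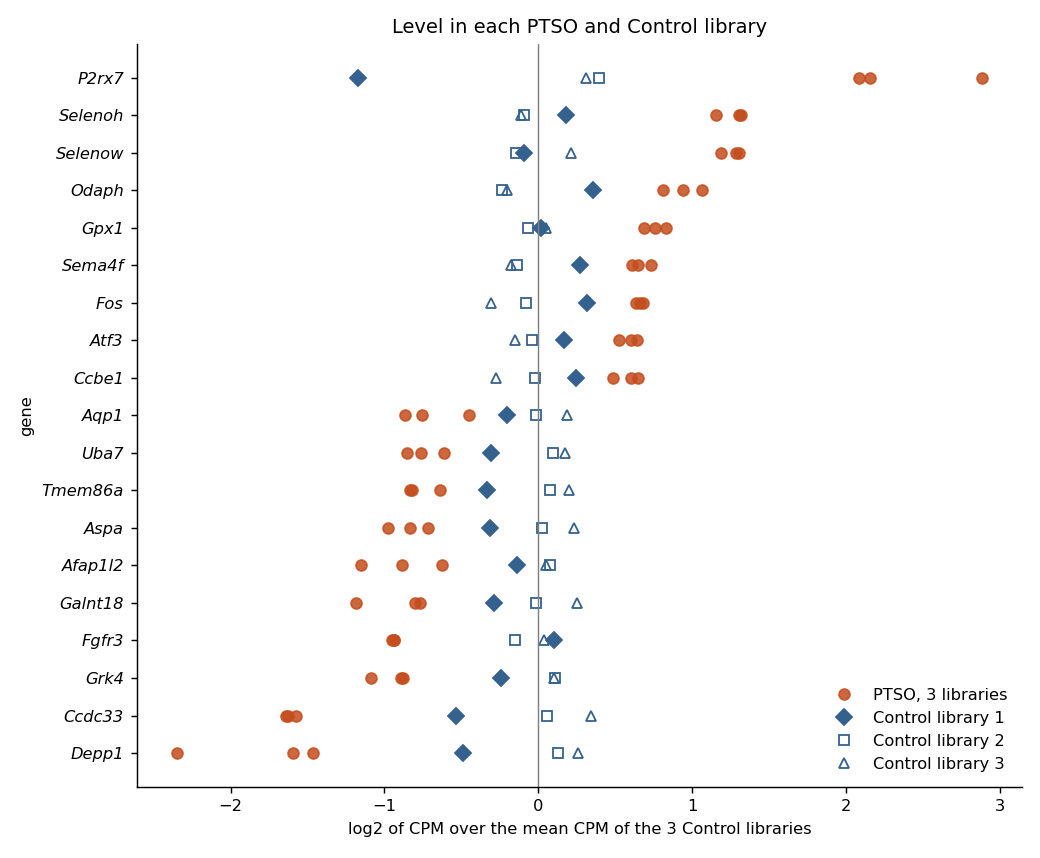
Level of the held genes with the 10 largest rises and falls, leaving aside those whose log2 CPM averaged under 1, in each of the 6 libraries, as log2 of CPM over the Control mean (x axis), 1 gene per row; Hspa1a is left out because a Control library has 0 counts. PTSO libraries (circles) do not overlap the Control libraries, and in most rows the filled diamond of Control library 1 is the Control value nearest to them, with P2rx7, Selenow, Gpx1 and Fgfr3 as exceptions.

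Another set of genes was selected for standing without Control libraries 2 and 3, and its calls there are part of the selection. Besides the selenoproteins, P2rx7 and Cyp1b1 it held Ddit4, an inhibitor of mTORC1 signalling, with 142, 139 and 144 CPM with PTSO and 107, 126 and 127 CPM in Control. Ddit4 was lowest in Control library 1, and its change of 0.24 (adjusted p = 0.0197) was 0.40 against that library. Utp14b, a retrogene copy of the ribosome factor Utp14a whose reads may be shared with its parent gene, changed by 0.36 with all libraries and 0.53 without Control libraries 2 and 3. Pde4dip, which encodes the centrosome and Golgi protein myomegalin, changed by 0.22 and 0.29.

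The falls of this set included epithelial and cytoskeletal genes. Clca3b, of the family of calcium-activated chloride channel regulators, had 39.2, 36.4 and 37.8 CPM with PTSO and 56.97, 57.3 and 55.96 CPM in Control, and all 3 Control libraries lay close together. It fell by 0.59 (adjusted p = 2.89e-05), and was at -0.59 without Control libraries 2 and 3. Oxr1, a gene of protection against oxidative damage, had 360.1, 340.5 and 355 CPM with PTSO and 446, 461 and 474 CPM in Control, a fall of 0.39 (adjusted p = 7.88e-05). Krt7, a simple epithelial keratin, had 1778, 1610.1 and 1688 CPM with PTSO and 2036, 2091 and 2175 CPM in Control, a fall of 0.31 (adjusted p = 0.000680). These 3 genes were held, as was the organic anion transporter Slco4a1 (-0.32). The matrix protein gene Tinagl1 (-0.22), the GTPase-activating protein gene Dlc1 (-0.34), Chodl (-0.59) and gamma actin, Actg1 (-0.17), were highest in Control library 1 and lost their call in at least 1 of the 12 fits. Actg1 has pseudogene copies that can share its reads.

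A further set shows calls that did not stand without Control libraries 2 and 3, which is how its genes were chosen. Dynap had 8.43, 11.02 and 10.3 CPM with PTSO and 6.55, 3.33 and 3.19 CPM in Control. Control libraries 2 and 3 were below the level of Control library 1, and the change of 1.19 was 0.60 against Control library 1. Kcnj2, an inward rectifier potassium channel, had 1.36, 0.656 and 1.14 CPM with PTSO and 1.67, 3.89 and 4.34 CPM in Control, and Control library 1 lay close to PTSO library 1. Hacd4, an enzyme of very long chain fatty acid synthesis, changed by -1.41, and by -0.71 against Control library 1. The AP-1 subunit Fosb had 77, 158 and 91 counts with PTSO and 31, 27 and 53 counts in Control. The TNF receptor adaptor Traf1 had 80, 79 and 70 counts with PTSO and 38, 29 and 36 counts in Control. Fosb and Traf1 showed a change of similar size against Control library 1 (1.68 and 0.89), at adjusted p = 0.144 and 0.569 with that library as the single Control.

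Tmem150a, a membrane protein of phosphoinositide kinase complexes, had the largest fall. It had 9, 13 and 3 counts with PTSO and 139, 163 and 134 counts in Control, with a wide gap between the groups and a log2 fold change of -4.24 ± 0.716 (adjusted p = 0.0106). Without Control libraries 2 and 3 it was at -4.18 (adjusted p = 0.250), and with 6 libraries adjusted p was 0.000103. In the antigen groups its level was 2.85, 2.14 and 6.25 CPM with PTSO + T. muris and 2.07, 0.309 and 0.422 CPM with T. muris, so a low level also occurred without PTSO and the libraries of 1 group spread widely.

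Immediate early genes, the fast transcriptional response to growth factor and stress signals, had 6 of 29 members called higher and 1 lower, where 2.36% and 2.90% of all genes were, with a median of 0.19. Fos, of the AP-1 factor, had 67.6, 65.5 and 66.7 CPM with PTSO and 52.4, 39.96 and 34.2 CPM in Control. Ier5 had 100.5, 98.6 and 100.3 CPM with PTSO and 81.3, 69.8 and 61.4 CPM in Control. In both the 3 PTSO libraries were close together, while the Control libraries spread, with library 1 the highest and nearest to PTSO and library 3 the lowest. Fos rose by 0.66 (adjusted p = 0.00400) and Ier5 by 0.49 (adjusted p = 0.00178), and both were called without Control libraries 2 and 3, at 0.34 (adjusted p = 0.0253) and 0.29 (adjusted p = 0.0448). Atf3, a stress-induced transcription factor, rose by 0.59 (adjusted p = 0.00224) and was at 0.42 (adjusted p = 0.153) without them. Klf10 (0.30), Arc (0.94) and Fosb were also called higher, and the orphan receptor Nr4a2 fell by 0.48. The median of the list was 0.09 without Control libraries 2 and 3.

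Feedback genes of ERK signalling had 5 of 22 called higher and 0 lower, where 2.36% of all genes were called higher, with a median of 0.21 that was 0.02 without Control libraries 2 and 3. Spred1, an inhibitor of RAS signalling, had 127, 133 and 132 CPM with PTSO and 114, 106 and 98.2 CPM in Control. It was the only held member (0.30, adjusted p = 0.00401), and was at 0.20 (adjusted p = 0.239) without Control libraries 2 and 3. The transcription factor Etv5 (0.75), Spred2 (0.24), the phosphatase Dusp16 (0.19) and Spry4 (1.81, from 31, 31 and 16 counts with PTSO and 7, 5 and 8 counts in Control) were the others, and 0 of the list were called without those libraries. Among 12 ligands and receptors of the epidermal growth factor family Areg (0.46) and Btc (0.41) were called higher, against 2.36% of all genes. Neither was held, and without Control libraries 2 and 3 they were at 0.30 and 0.20.

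The TGF-beta and activin list had 4 of 23 called higher and 0 lower, where 2.36% and 2.90% of all genes were. Its median was 0.01. Inhba, the activin A subunit, had 125, 142 and 127 CPM with PTSO and 102, 83.9 and 87.9 CPM in Control. Pmepa1, a target and inhibitor of TGF-beta signalling, had 538, 511 and 546 CPM with PTSO and 453, 397 and 389 CPM in Control. Both were held and higher in every PTSO library, with Inhba at 0.53 (adjusted p = 0.000243) and Pmepa1 at 0.36 (adjusted p = 0.00102). Without Control libraries 2 and 3 they stood at 0.37 (adjusted p = 0.00633) and 0.23 (adjusted p = 0.0336). The corepressor Tgif1 was held (0.24) and had adjusted p = 0.0655 without those libraries, and the inhibitor Smad7 (0.32) was not held.

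In the ATF4 list of the integrated stress response the called members went both ways, 4 higher and 3 lower of 25. Over all genes 2.36% were called higher and 2.90% lower. Ppp1r15a, a phosphatase subunit that restores translation, had 73.9, 81.3 and 73.6 CPM with PTSO and 58.6, 50.9 and 52.5 CPM in Control. Each PTSO library exceeded each Control library, and the rise of 0.50 (adjusted p = 0.000774) was 0.38 (adjusted p = 0.0283) without Control libraries 2 and 3. Atf3, Ddit4 and Cebpb (0.36) were the other rises. Asns, asparagine synthetase, fell by 0.38, the stress regulator Nupr1 by 0.27 and the secreted glycoprotein Stc2 by 0.34. The median turned from 0.12 with all libraries to -0.07 without Control libraries 2 and 3. Psat1 and Mthfd2, enzymes of serine and folate metabolism, were then at -0.31 and -0.27. The unfolded protein response had 0 higher and 3 lower of 20, against 2.90% of all genes called lower. These were Herpud1 (-0.24), Xbp1 (-0.35) and Ern1 (-0.19), none of them held, and the list median was -0.05 in both fits.

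Mitosis genes had the highest share of calls among the lists, and mitosis and DNA replication genes had none without Control libraries 2 and 3. Of 28 mitosis genes 16 were called higher and 0 lower, where 2.36% of all genes were called higher, with a median of 0.30 and 27 members above 0. Top2a, the mitotic DNA topoisomerase, had 887, 978 and 982 CPM with PTSO and 803, 714 and 624 CPM in Control. Knl1, a kinetochore scaffold, had 94.8, 102 and 109 CPM with PTSO and 85.6, 81.2 and 67.7 CPM in Control. Control levels in both were highest in library 1 and lowest in library 3, and no PTSO library overlapped them. Top2a rose by 0.41 (adjusted p = 0.00998) and was at 0.24 without Control libraries 2 and 3 (adjusted p = 0.131), and Knl1 rose by 0.38 and was at 0.25 (adjusted p = 0.211). The spindle protein Prc1 (0.27) and the kinesin Kif20b (0.29) were likewise highest in Control library 1 and lowest in Control library 3. In the whole list 0 calls were held, 25 of 28 members stayed above 0 without Control libraries 2 and 3, and the median was then 0.10; without Control library 1, 25 members were called and the median was 0.42.

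DNA replication genes had 7 of 29 called higher, 0 lower and 0 held, where 2.36% of all genes were called higher. The median was 0.26 with all libraries, 0.03 without Control libraries 2 and 3 and 0.37 without Control library 1. Mcm3, of the replicative helicase, had 208, 229.7 and 225 CPM with PTSO and 199, 168 and 149.6 CPM in Control. Cdc45, its activator, had 33.3, 37.9 and 39.5 CPM with PTSO and 31.9, 26.1 and 21.5 CPM in Control. Control library 1 lay just under the lowest PTSO library in both, and Control library 3 was the lowest of the 6. Mcm3 rose by 0.36 and Cdc45 by 0.48, against 0.15 and 0.21 without Control libraries 2 and 3. The helicase subunit Mcm4 overlapped between the groups, with 131, 149.8 and 137 CPM with PTSO and 133, 109 and 106 CPM in Control. Whether these lists follow the principal component on which Control libraries 2 and 3 stood apart was not tested, nor was its part in their calls.

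Among p53 targets and inhibitors of cyclin-dependent kinases 2 of 24 were called higher and 4 lower, where 2.36% and 2.90% of all genes were. Gadd45a, a DNA damage and stress gene, had 63.8, 69.6 and 67.2 CPM with PTSO and 49.5, 52.3 and 46.4 CPM in Control. All Control libraries were well below the PTSO libraries, and the rise of 0.44 (adjusted p = 0.00121) was 0.43 (adjusted p = 0.00793) without Control libraries 2 and 3. The inhibitor Cdkn1b rose by 0.19, and Cdkn2a (-0.22), Perp (-0.31), Cdkn2b and Plk2 were called lower, none of these 5 held. Of 20 chromatin genes the Polycomb subunits Ezh2 (0.25) and Suz12 (0.15) and the methyltransferase Dnmt1 (0.24) were called higher. None was held, and without Control libraries 2 and 3 they were at 0.10, 0.15 and 0.07.

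Cholesterol synthesis had 8 of 25 genes called lower and 0 higher, where 2.90% of all genes were called lower. Its median was -0.16 with all libraries and -0.14 without Control libraries 2 and 3, and 24 of 25 members were below 0 in both. Hmgcs1, of the mevalonate pathway, had 129.6, 134 and 123 CPM with PTSO and 148, 159 and 176 CPM in Control. Msmo1, a sterol demethylation enzyme, had 203, 192 and 193 CPM with PTSO and 227, 228 and 230.01 CPM in Control. Both were held, and no PTSO library reached a Control library in either. Hmgcs1 fell by 0.32 (adjusted p = 0.00401) and Msmo1 by 0.22 (adjusted p = 0.00584). Without Control libraries 2 and 3 Hmgcs1 was at -0.20 (adjusted p = 0.211) and Msmo1 at -0.21 (adjusted p = 0.0719). Sqle, squalene epoxidase (-0.30), Mvd, Idi1, Lss and Insig1 were also called lower.

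Other metabolic lists had few or no calls. Fatty acid and lipid synthesis had 1 of 25 lower, the elongase Elovl6 (-0.25), and glycolysis and HIF targets 1 of 29 lower, the phosphofructokinase Pfkm (-0.39), shares near the background of 2.90%. The glycolysis median turned from -0.04 with all libraries to 0.09 without Control libraries 2 and 3. Of 30 nuclear subunits of the respiratory chain 0 were called. Of 15 mitochondrially encoded genes mt-Rnr2, the mitochondrial large ribosomal RNA, was called higher, with 296, 317 and 255 CPM with PTSO and 203, 207 and 199 CPM in Control. The groups did not overlap (0.52, adjusted p = 0.00602), and the value without Control libraries 2 and 3 was 0.51 (adjusted p = 0.503); nuclear copies can share its reads. Ribosomal proteins (54 genes), proteasome subunits (31) and cytosolic tRNA synthetases (20) had 0 calls, with medians of 0.02, 0.04 and 0.08 that were -0.09, -0.04 and -0.06 without Control libraries 2 and 3.

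**Figure D4:**
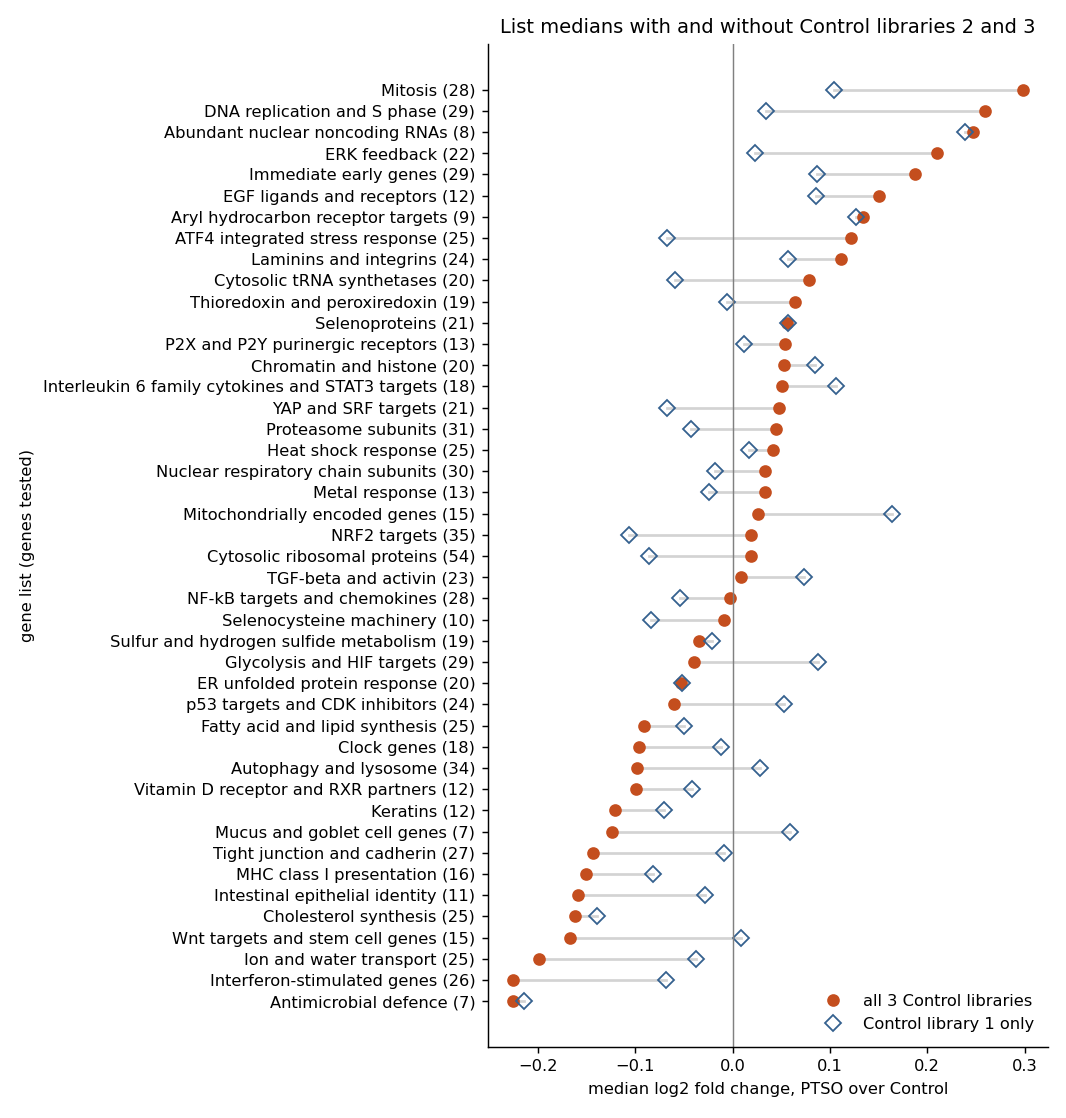
Median log2 fold change, PTSO over Control, of each gene list with at least 7 tested genes (x axis; number tested in parentheses), with all 3 Control libraries (circles) and with Control library 1 as the only one (diamonds). Mitosis has the largest median, 0.30, and moves to 0.10, while cholesterol synthesis (-0.16 and -0.14) and selenoproteins (0.06 in both) move little.

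Epithelial structure genes changed in both directions. Laminins and integrins had 7 of 24 called higher and 2 lower, where 2.36% and 2.90% of all genes were, with a median of 0.11 (0.06 without Control libraries 2 and 3). Lama3, a subunit of laminin-332, had 169, 185 and 194 CPM with PTSO and 143, 147 and 141 CPM in Control. The Control libraries lay close together, so that the rise of 0.35 (adjusted p = 0.00125) was 0.35 (adjusted p = 0.00577) without Control libraries 2 and 3. The integrin Itgav was held too (0.28) and was at 0.30 (adjusted p = 0.0161) without them. Lamb3, also a laminin-332 subunit, rose by 0.28 but was at 0.11 (adjusted p = 0.687) without them. Lama5, a laminin chain of mature gut basement membrane, had 1329, 1299 and 1236 CPM with PTSO and 1528, 1901 and 1639 CPM in Control. It fell by 0.39 (adjusted p = 0.00421), and was at -0.25 (adjusted p = 0.0359) without Control libraries 2 and 3.

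Tight junction and cadherin genes had 2 of 27 called higher and 4 lower, where 2.36% and 2.90% of all genes were. Epcam, an epithelial adhesion protein, had 587, 599 and 620.4 CPM with PTSO and 495, 478 and 504 CPM in Control. The Control libraries lay close together, and the rise of 0.29 (adjusted p = 0.00119) was 0.28 (adjusted p = 0.00333) without libraries 2 and 3. Tjp3, a scaffold of tight junctions, had 28.4, 23.4 and 24.4 CPM with PTSO and 33.05, 39.5 and 43.2 CPM in Control. It was held (-0.60, adjusted p = 0.00394) but had adjusted p = 0.263 (-0.38) without Control libraries 2 and 3. Cldn4 rose by 0.22, and Cdh3, P-cadherin (-0.42), Cldn2 (-0.48) and the junction scaffold Cgn (-0.17) fell; Cdh3 alone of these was called without Control libraries 2 and 3 (-0.62, adjusted p = 0.0336). Keratins had Krt6a higher (0.61) and Krt7 and Krt19 (-0.23) lower of 12, of which Krt7 alone was held.

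Ion and water transport had 0 higher and 6 lower of 25, where 2.90% of all genes were called lower. Its median was -0.20 with all libraries and -0.04 without Control libraries 2 and 3. Aqp1 had 84.97, 63.8 and 68.9 CPM with PTSO and 101, 115 and 133 CPM in Control. Atp1b1, the beta subunit of the sodium pump, had 33.1, 26.5 and 28.9 CPM with PTSO and 36.3, 46.004 and 51.7 CPM in Control. Both were held, and in both Control library 1 was the lowest of its group and nearest to PTSO, and Control library 3 the highest. Atp1b1 fell by 0.60 (adjusted p = 0.00417) and was at -0.30 (adjusted p = 0.431) without Control libraries 2 and 3. Clca3b was the held member that did not depend on them, and the bicarbonate cotransporter Slc4a4 (-0.38), Kcnq1 and Kcnj2 were the other calls. Mucus genes and antimicrobial genes had 0 of 7 called each.

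Calls in the immune lists are given beside the shares of all genes called, 2.36% higher and 2.90% lower. Of 26 interferon-stimulated genes 1 was called lower, the RNA sensor Ddx58 (-0.45), and 23 were below 0, with a median of -0.23 that was -0.07 without Control libraries 2 and 3. Of 16 MHC class I presentation genes 3 were called lower, the peptide-loading genes Tapbp (-0.25) and Tap2 (-0.58) and H2-D1 (-0.22), whose reads can be shared among class I genes; none was called without those libraries. Lif, a cytokine of the interleukin 6 family, had 33.5, 35.2 and 33.8 CPM with PTSO and 26.5, 23.8 and 22.8 CPM in Control, and Il33, an epithelial alarmin, had 671, 612 and 649.6 CPM with PTSO and 740.3, 787 and 834 CPM in Control. Neither gene overlapped between the groups and both were held, with Lif at 0.49 (adjusted p = 0.00176) and Il33 at -0.29 (adjusted p = 0.00299). Without Control libraries 2 and 3 they were at 0.36 (adjusted p = 0.153) and -0.20 (adjusted p = 0.0727). Lif, Il33 and Il24 (0.84) were the called members of the list of interleukin 6 family cytokines and STAT3 targets. Of its 18 tested genes 2 were called higher and 1 lower. The list median was 0.05 with all libraries and 0.11 without Control libraries 2 and 3. Among 28 NF-kB targets Traf1 was higher and Tnfaip2 (-0.34) and Csf1 (-0.33) were lower. The NF-kB median was -0.003 with all libraries and -0.05 without Control libraries 2 and 3.

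Receptor and metal genes added single held falls. Vdr, the vitamin D receptor, had 11.2, 11.3 and 11.6 CPM with PTSO and 17.6, 16.4 and 18.9 CPM in Control. The 6 libraries formed separate groups with little spread, and Vdr fell by 0.63 (adjusted p = 0.00653). The value was -0.63 (adjusted p = 0.0804) without Control libraries 2 and 3, the same size with fewer libraries. Cp, the copper oxidase ceruloplasmin, had 88.3, 80.7 and 81.7 CPM with PTSO and 108, 137 and 148 CPM in Control, a held fall of 0.65 (adjusted p = 0.00517) that was -0.37 (adjusted p = 0.0283) without Control libraries 2 and 3. The iron uptake receptor Tfrc rose by 0.26 and the zinc transporter Slc39a4 fell by 0.23, neither of them held. Dbp, an output gene of the circadian clock, shows how far a call could rest on Control libraries 2 and 3: it had 9.72, 8.46 and 8.57 CPM with PTSO and 9.76, 20.3 and 20.5 CPM in Control. Control library 1 lay just above the highest PTSO library, and the change of -0.92 (adjusted p = 0.0242) was -0.13 (adjusted p = 0.919) against it.

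The same compound was given in a separate set of libraries, PTSO + T. muris against T. muris, which uses no PTSO-only or Control library in its contrast. There 94 genes (0.616%) were called, 35 higher and 59 lower. Of the 802 genes called with PTSO alone, 740 (92.3%) had the same sign, 61 were called the same way and 0 the opposite way, while 60.7% of all genes had the same sign. The median change of these genes, signed by the call, was 0.34 with PTSO alone and 0.14 with antigens. Because the genes were chosen by their calls with PTSO alone, that choice tends to raise their median there. The same limit holds for each set of genes below. Of the 117 held genes 116 had the same sign and 41 were called, with medians of 0.42 with PTSO alone and 0.26 with antigens. Of the 53 genes called without Control libraries 2 and 3, 52 had the same sign and 30 were called, with medians of 0.41 with PTSO alone and 0.33 with antigens. The other 749, whose calls were lost without those libraries, had the same sign in 688 (91.9%), and 31 were called, with medians of 0.34 with PTSO alone and 0.13 with antigens.

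Named genes varied in this respect. Selenow (1.46, adjusted p = 4.29e-09), Gpx1 (0.81), P2rx7 (3.35, adjusted p = 8.57e-05), Clca3b (-0.76), Vdr (-1.02) and mt-Rnr2 (0.86) changed with antigens by at least the size seen with PTSO alone, and Selenoh (1.25) by nearly the same size. P2rx7 had 6.82, 6.11 and 5.85 CPM in PTSO + T. muris libraries, against 0.526, 0.348 and 1.08 CPM in T. muris libraries, without overlap. Cyp1b1 (0.39, adjusted p = 0.00781), Inhba (0.34, adjusted p = 0.0225), Lama3 (0.35, adjusted p = 0.00146), Gadd45a (0.32, adjusted p = 0.0240) and Il33 (-0.29, adjusted p = 0.00699) were also called. Values close to 0 were found for Ccdc33 (-0.04, adjusted p = 0.985), Itgav (0.04, adjusted p = 0.887), Dbp (-0.06, adjusted p = 0.970) and Etv5 (-0.10, adjusted p = 0.907). The mitosis median was 0.15 with 28 of 28 members above 0 and 0 called, and the cholesterol median was -0.10 with 22 of 25 below 0 and 0 called.

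**Figure D5:**
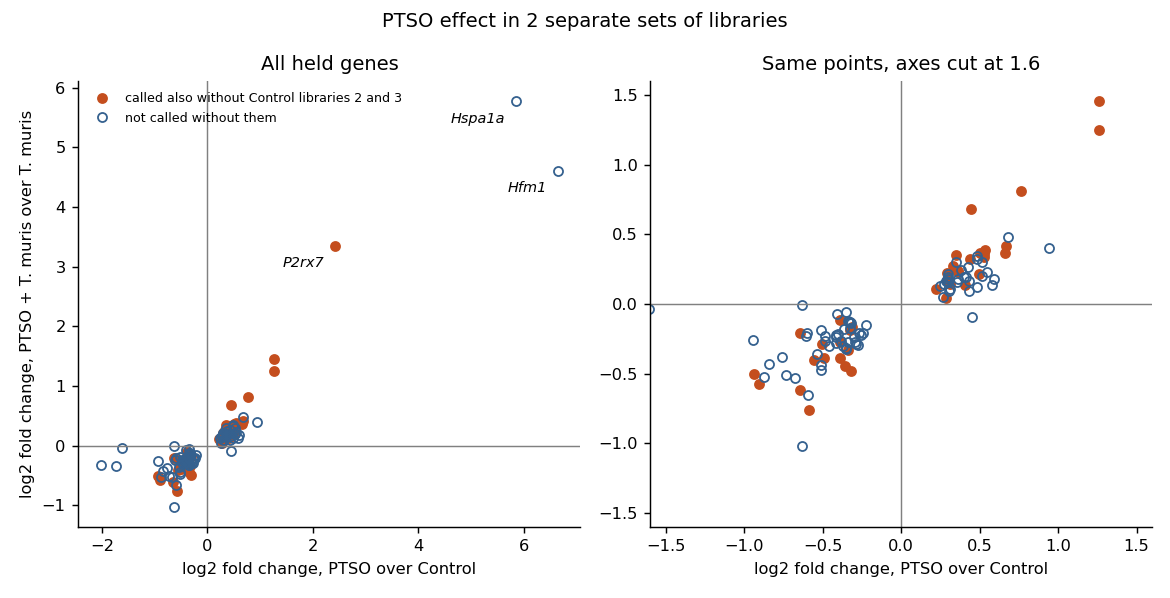
Log2 fold change of the 117 held genes, PTSO over Control (x axis), against the change PTSO + T. muris over T. muris (y axis), which shares no library with it; the right panel shows the same points with axes cut at 1.6. All but 1 gene have the same sign in both; filled points were also called without Control libraries 2 and 3. Hfm1, named after its values were seen, had 0 counts in each Control library and 10, 20 and 10 counts in the PTSO libraries, so its position depends on the prior count.

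Whether the PTSO effect itself differed between cells with and without antigens was tested as an interaction in edgeR. It called 0 genes at an adjusted p under 0.05, with 1181 genes at an unadjusted p under 0.05 and 4 called by DESeq2. The smaller effects with antigens are therefore not shown to differ from those with PTSO alone, and the interaction count was 1274 without Control library 1 and 1 without Control libraries 2 and 3.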

How the data were processed

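Gene-level read counts were analysed for 12 RNA libraries of CMT-93 cells, total RNA per the labels' protocols. The authors deposited 1 table of raw counts, used without change; per the submitters' processing notes HISAT, DESeq2 and the mm39 build were used, with no versions. How reads were counted, by which annotation and with which strand setting, is not given in the sources used here. LPS stands in the series title and PTSO-PTS in the design text; groups follow the sample labels. Of 55137 identifiers, 25928 had no count in any library. Symbols and selenocysteine codons came from GENCODE M21 (GRCm38), where 53620 identifiers were found, and promoters from RefSeq (GRCm38.p6). The files' build differs, so no coordinate was read from it.

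edgeR 4.0.16 (R 4.3.3) kept 15267 genes by filterByExpr, with 99.9% of counts, and fitted all 12 libraries after TMM scaling with 1 coefficient per group (8 residual degrees of freedom, robust quasi-likelihood F-test, Benjamini-Hochberg adjustment). CPM are TMM-scaled, and library differences use a prior count of 2. SE is the size of the log2 fold change over the square root of F. The single Control library of the fit without Control libraries 2 and 3 is assumed to vary like the other groups. Alternatives were 12 leave-one-out fits, the 6 libraries alone, RLE and upper quartile scaling, DESeq2 1.42.0, limma 3.58.1 voom with sample weights, other filters, non-robust dispersion, a test against 1.2-fold and a replicate block. The script was tested on simulated data.

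Members and lists (47 lists, 1097 entries) were chosen with earlier results of these data known. Genes named are the 10 largest held rises and falls without overlap at a mean log2 CPM of at least 1, the 8 with smallest adjusted p each way that stood without Control libraries 2 and 3, the 5 largest each way that did not, and up to 4 members of each list by smallest p; further called list members, and those called only without Control libraries 2 and 3, are named after their values were seen. A few genes that these rules select are not reported here. Figures were drawn with matplotlib 3.10.9.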

Additional observations from a re-analysis of the deposited data

How the results depend on the processing

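The count of genes called in PTSO against Control ranged from 162 to 3663 over the 12 fits that left out 1 library (70 to 1879 higher, 91 to 1784 lower). Leaving out Control library 1 gave the highest count and leaving out Control library 2 the lowest, and 4 of the 802 calls were lost when Control library 1 was left out, against 640 and 587 for Control libraries 2 and 3 and 636 and 599 for PTSO libraries 2 and 3. The count was 73 without Control libraries 2 and 3 together (30 higher, 43 lower), 51 with only the 6 libraries (22 and 29), 1544 with DESeq2 (741 and 803), 4050 with voom and sample weights (2054 and 1996), 1728 with no low-count filter (841 and 887), and 13 in a test against a 1.2-fold change (6 and 7). RLE and upper quartile scaling, the 1 CPM filter and non-robust dispersion kept it within 1.5 times. Of 131 named genes, 44 kept their side of the threshold and direction without Control libraries 2 and 3, 86 lost their call, and Pdgfra, not called in either, turned to 0.35.

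For PTSO + T. muris against T. muris (94 genes, 35 higher and 59 lower) the range over the same 12 fits was 23 to 372 (9 to 140 higher, 13 to 232 lower). The count was 497 with its 6 libraries alone (201 and 296), 423 without Control libraries 2 and 3 (168 and 255), 195 with DESeq2 (68 and 127), 451 with voom weights (172 and 279), 249 with no filter (94 and 155), 60 with non-robust dispersion (23 and 37) and 13 against a 1.2-fold change (7 and 6). The interaction had 0 genes as reported and 0 to 1274 over leave-one-out fits (0 to 547 higher, 0 to 727 lower). It had 1 without Control libraries 2 and 3 (1 higher), 4 with DESeq2 (3 higher, 1 lower), 928 with voom weights (365 and 563), 45 with no filter (23 and 22) and 1 with non-robust dispersion (1 higher). The cause of these shifts was not tested.

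The replicate numbers of the labels did not pair the libraries: same-numbered libraries correlated at -0.058 to 0.098 in their deviations from the group means, and 0 libraries correlated best with their own number. With the numbers as a replicate block 435 genes were higher and 469 lower in PTSO against Control, and the interaction had 1 gene (1 higher). With the block and only the 6 libraries PTSO against Control had 5 genes (3 higher, 2 lower), and PTSO + T. muris against T. muris 584 (239 and 345).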

Other observations

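Several lists of the comparison of PTSO with Control held 1 or 2 calls each. Over all genes 2.36% were called higher and 2.90% lower. Of 15 Wnt targets and stem cell genes Notum, a secreted inhibitor of Wnt ligands, was called lower, with 3.55, 2.72 and 2.40 CPM with PTSO and 4.88, 5.03 and 9.44 CPM in Control. The groups did not overlap, and the fall of 1.15 (adjusted p = 0.0216) was -0.75 (adjusted p = 0.536) without Control libraries 2 and 3. The median of that list was -0.17 with all libraries and 0.01 without Control libraries 2 and 3. Of 21 YAP and SRF targets 0 were higher and 2 lower, Actg1 and the tropomyosin Tpm1 (-0.15), and of 34 autophagy and lysosome genes 1 was lower, the ATG8 family member Gabarapl1 (-0.39). Of 8 abundant nuclear noncoding RNAs the snoRNA host genes Snhg1 (0.52) and Snhg5 (0.40) were called higher, and the list median was 0.25 with all libraries and 0.24 without Control libraries 2 and 3, although neither gene was called there (adjusted p = 0.780 and 0.715).

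Of 12 markers of rare gut epithelial cells, Dclk1 and Mmp7 averaged at least 1 CPM in Control, and the others were below it. Enteroendocrine, tuft and Paneth markers summed to 28.0 to 31.7 CPM with PTSO and 29.8 to 47.6 CPM in Control, with Neurod1, Gcg, Pou2f3 and Defa24 at 0. Mmp7, a Paneth cell protease, had 10.4, 8.46 and 8.13 CPM with PTSO and 11.98, 18.99 and 25.8 CPM in Control. Control library 3 was the highest and library 1 the nearest to PTSO, and its fall of 1.07 (adjusted p = 0.0499) was -0.41 (adjusted p = 0.715) without Control libraries 2 and 3. Dhrs3, a retinal reductase named here after its values were seen, had 27, 25 and 12 counts with PTSO and 45, 82 and 111 counts in Control, a fall of 2.01 (adjusted p = 0.00418) that held in all 12 leave-one-out fits and was -1.21 (adjusted p = 0.526) without Control libraries 2 and 3.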
